A study of Rattus norvegicus with 9 samples.

Results

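The integrated stress response and amino acid synthesis genes described here are 10 rat genes, Asns, Psat1, Phgdh, Atf4, Atf3, Ddit3, Trib3, Hspa5, Xbp1 and Herpud1. They were chosen by name, as every probe set that the array annotation gives to one of these symbols alone, which found 12 probe sets of 31042 tested and all 10 genes of 14217. Affymetrix arrays measured RNA in 9 bladder tissues of female Sprague-Dawley (SD) rats aged 10 weeks. There were 3 bladder transitional cell carcinomas (BTCC), 3 adjacent normal tissues and 3 bladders of normal rats. The tumors and adjacent normal tissues came from the same 3 rats, whose bladders received 20 mg/ml N-methyl-N-nitrosourea (MNU), an alkylating carcinogen, once weekly for 10 weeks. The labels carry that MNU text for all 9 samples, whereas the design describes the last 3 as tissue of 3 other, normal rats. A piece of bladder holds epithelium, muscle, stroma and blood cells together, and in such bulk samples fewer cells of a type and less RNA per cell cannot be told apart.

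The integrated stress response is the way cells slow protein synthesis when amino acids, heme or protein folding capacity run short, or when virus is sensed. Kinases such as GCN2 and PERK phosphorylate the initiation factor eIF2, most translation falls, and the messenger RNA of ATF4 is translated more. ATF4 then switches on genes for amino acid supply, such as Asns, Psat1 and Phgdh, and with CHOP (Ddit3) and ATF3 a further set of stress genes, such as Trib3. The unfolded protein response of the endoplasmic reticulum shares PERK with it and has separate branches through ATF6 and through IRE1 and XBP1, which raise chaperones such as BiP (Hspa5). ATF4 is controlled largely at translation and XBP1 largely at splicing, and these arrays read neither.

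The 2 programs bind different promoter elements, so the promoters of the members that hold one of them are shown. The sequences are RefSeq's on the GRCr8 build, 250 bases before and 50 after the start site, 5′ to 3′ on the gene's strand, and 9 of the 10 members had one (Atf3 did not). Capitals mark the match. The amino acid response element core, TGATGNAA, which ATF4 dimers bind, was searched on both strands and lies in 3.98% of 33469 promoters of that length. Among the members it was found in these promoters, on the reverse strand, with its first base at -21 from the start site in Trib3 and at -184 in Herpud1.
Trib3, chr3:161275484-161275783, - strand: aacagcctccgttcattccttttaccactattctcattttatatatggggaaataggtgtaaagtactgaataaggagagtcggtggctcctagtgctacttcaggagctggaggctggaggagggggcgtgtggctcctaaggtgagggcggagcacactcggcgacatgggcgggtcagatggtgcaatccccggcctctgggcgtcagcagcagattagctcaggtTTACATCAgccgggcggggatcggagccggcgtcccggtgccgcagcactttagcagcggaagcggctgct
Herpud1, chr19:10614658-10614957, - strand: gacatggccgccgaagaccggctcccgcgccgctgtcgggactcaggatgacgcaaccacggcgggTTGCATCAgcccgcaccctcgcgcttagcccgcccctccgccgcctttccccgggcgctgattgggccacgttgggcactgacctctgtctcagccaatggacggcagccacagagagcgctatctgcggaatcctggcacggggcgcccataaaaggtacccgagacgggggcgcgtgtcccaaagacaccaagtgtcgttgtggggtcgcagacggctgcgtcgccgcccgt

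The endoplasmic reticulum stress response element, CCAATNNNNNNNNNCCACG, which ATF6 uses, lies in 0.0657% of promoters. It was found on the forward strand in both of these members, with its first base at -43 in Hspa5 and at -65 in Xbp1.
Hspa5, chr3:38452766-38453065, + strand: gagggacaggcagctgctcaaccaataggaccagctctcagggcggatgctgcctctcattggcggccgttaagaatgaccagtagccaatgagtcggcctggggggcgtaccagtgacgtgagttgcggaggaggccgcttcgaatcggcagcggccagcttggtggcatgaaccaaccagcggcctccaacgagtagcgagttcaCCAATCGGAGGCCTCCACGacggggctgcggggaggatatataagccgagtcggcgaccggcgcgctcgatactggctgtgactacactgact
Xbp1, chr14:84604373-84604672, + strand: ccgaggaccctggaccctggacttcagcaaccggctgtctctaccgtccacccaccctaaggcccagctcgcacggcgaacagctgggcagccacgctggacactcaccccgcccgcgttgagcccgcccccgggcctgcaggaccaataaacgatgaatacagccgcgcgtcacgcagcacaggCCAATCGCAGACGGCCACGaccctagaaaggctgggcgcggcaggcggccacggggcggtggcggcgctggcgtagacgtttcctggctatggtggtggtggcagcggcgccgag

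The XBP1 element TGACGTGG (0.595% of promoters) and the cyclic AMP response element TGACGTCA (1.83%) were found in 0 of the 9 promoters. No 2 of these motifs overlapped in a member's promoter. A match is a description of letters, and no match says only that these letters are not in this window. Only the motifs named here and above were searched, so a match to a motif does not assign a gene, Herpud1 included, to either program. Of the 4 genes shown, Trib3 was higher in both tissues of tumor-bearing rats than in normal bladder, and Hspa5, Xbp1 and Herpud1 passed the test in neither. No match to any of these motifs was found in the promoters of Asns, Psat1, Phgdh, Atf4 and Ddit3. Asns, Psat1 and Phgdh were higher in both tissues without one.

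The 3 enzymes of amino acid synthesis, Asns, Psat1 and Phgdh, were higher than in normal bladder, in tumors and in adjacent normal tissues alike. The values given are MAS 5.0 signals on the log2 scale, in the order of arrays 1, 2 and 3 of a group, and they were set against each other only within a probe set. Asns, which makes asparagine from aspartate and glutamine, had log2 signals of 10.26, 10.45 and 10.97 in tumors on probe set 1387925_at, against 9.03, 9.07 and 8.99 in normal bladders. Every tumor lay above every normal bladder, by at least 1.19. The log2 fold change was 1.53 ± 0.19 (SE, n = 3 per group), or 2.89-fold, with an adjusted p of 0.00469 (limma, Benjamini-Hochberg over all 31042 probe sets, threshold 0.05). Adjacent normal tissues had 10.43, 10.37 and 10.79, again without overlap with normal bladders (1.50 ± 0.15, adjusted p = 0.00113). Tumors and adjacent normal tissues overlapped, with a difference of 0.03 and a 95% confidence interval from -0.50 to 0.56.

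Psat1 encodes the aminotransferase of the serine pathway, and by the brightest probe set of each gene it had the largest difference of the members in both comparisons with normal bladder. On probe set 1372665_at its log2 signals were 9.74, 10.68 and 10.31 in tumors, against 7.47, 6.87 and 7.74 in normal bladders (2.88 ± 0.30, 7.37-fold, adjusted p = 0.00327). Adjacent normal tissues had 10.30, 9.76 and 11.35 (3.11 ± 0.41, 8.65-fold, adjusted p = 0.00253). The gap between the normal bladders and either tissue was wider than the spread within any of the groups. Against adjacent normal tissues the tumors overlapped (-0.23, interval -1.21 to 0.75).

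Phgdh encodes the dehydrogenase that starts serine synthesis from an intermediate of glycolysis. On probe set 1367811_at tumors had 8.26, 8.75 and 9.26, against 6.97, 6.78 and 6.72 in normal bladders (1.93 ± 0.27, 3.82-fold, adjusted p = 0.00673). The adjacent normal tissues had 8.79, 8.74 and 9.72 (2.26 ± 0.29, 4.80-fold, adjusted p = 0.00242). No array of either tissue overlapped the normal bladders. Tumors and adjacent normal tissues overlapped (-0.33, interval -1.15 to 0.50). The calls of Asns, Psat1 and Phgdh held without each array in turn in both comparisons.

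**Figure D1:**
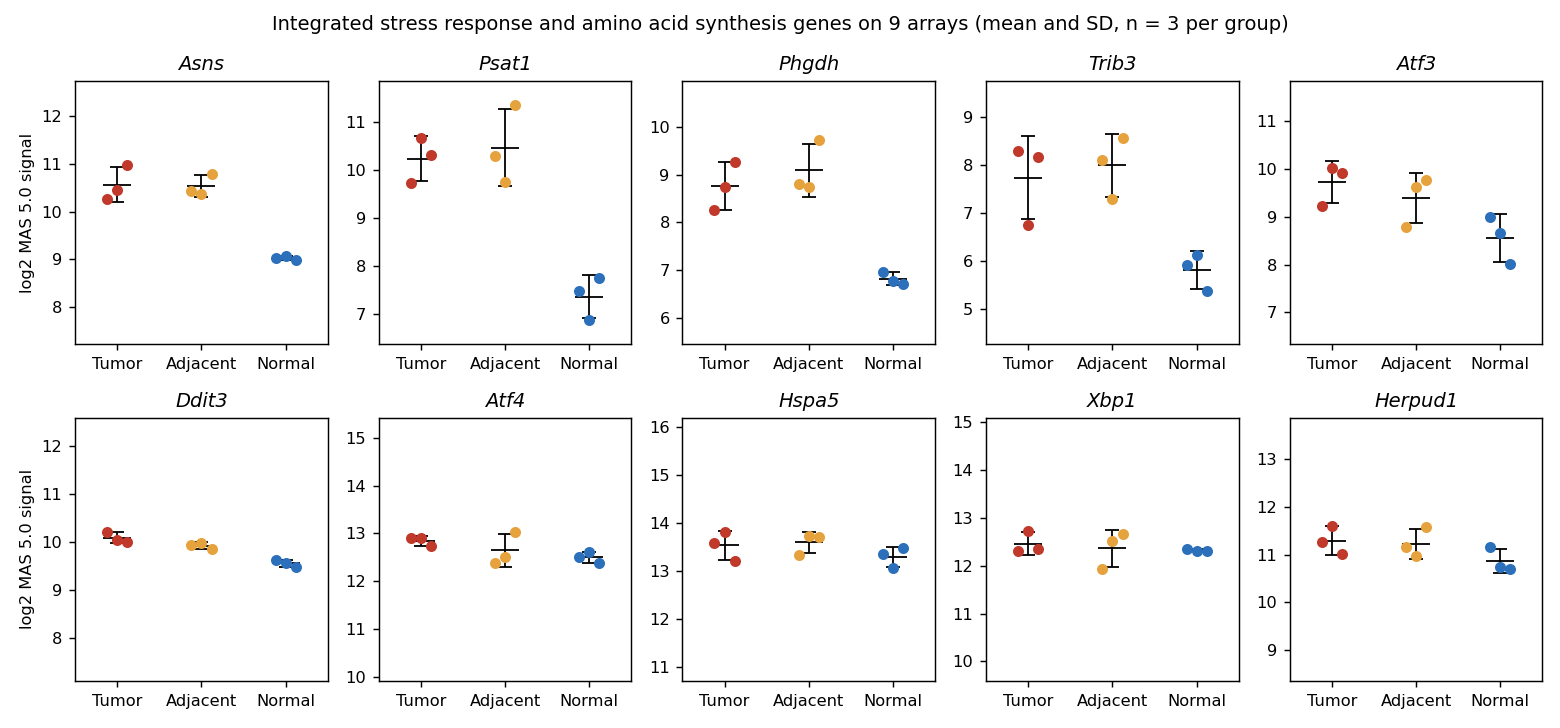
Each panel plots the log2 MAS 5.0 signal of a gene's brightest probe set on 9 arrays, as points for tumors, adjacent normal tissues and normal bladders, with a bar for the mean and error bars for the SD (n = 3 per group). All panels span the same number of log2 units around their own level. Asns, Psat1, Phgdh and Trib3 show both tissues of tumor-bearing rats above all 3 normal bladders, and in Hspa5, Xbp1 and Herpud1 the groups overlap.

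Trib3, a pseudokinase that is induced by ATF4 and CHOP and restrains ATF4 in turn, was also higher in both tissues, on all 3 of its probe sets. On the brightest, 1386321_s_at, tumors had 8.31, 6.75 and 8.17, against 5.92, 6.13 and 5.37 in normal bladders (1.93 ± 0.46, 3.82-fold, adjusted p = 0.0304). Adjacent normal tissues had 8.12, 7.29 and 8.58 (2.19 ± 0.39, 4.55-fold, adjusted p = 0.00806). Tumor 2 was the lowest array of both tissues, yet it still stood 0.61 above the highest normal bladder. The tumor call was lost without tumor 3 or without any one of the normal bladders, where the adjusted p reached 0.107, and the call in adjacent normal tissues was kept.

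A signal of 50, a log2 signal of 5.64, was treated as the limit of a reliable value, since probe sets between 4 and 5 on the log2 scale had a median SD of 1.02 among the arrays of a group, and those between 9 and 10 one of 0.25. On the other probe sets of Trib3 all 3 normal bladders lay under it, so the fold changes are lower bounds, the mean of the higher group over 50. Probe set 1370695_s_at had 7.48, 6.97 and 6.99 in tumors and 6.67, 7.13 and 7.65 in adjacent normal tissues, against 5.13, 4.06 and 2.63 in normal bladders. That is at least 2.84-fold higher in tumors (adjusted p = 0.0173) and at least 2.84-fold higher in adjacent normal tissues (adjusted p = 0.0134). Probe set 1370694_at had 6.43, 6.24 and 6.28 in tumors, 6.44, 5.42 and 7.22 in adjacent normal tissues and 2.85, 3.34 and 3.99 in normal bladders. Adjacent tissue 2 lay under the limit as well, so its order against the normal bladders is not known. The probe set was at least 1.59-fold higher in tumors (adjusted p = 0.00877) and at least 1.64-fold higher in adjacent normal tissues (adjusted p = 0.0135).

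**Figure D2:**
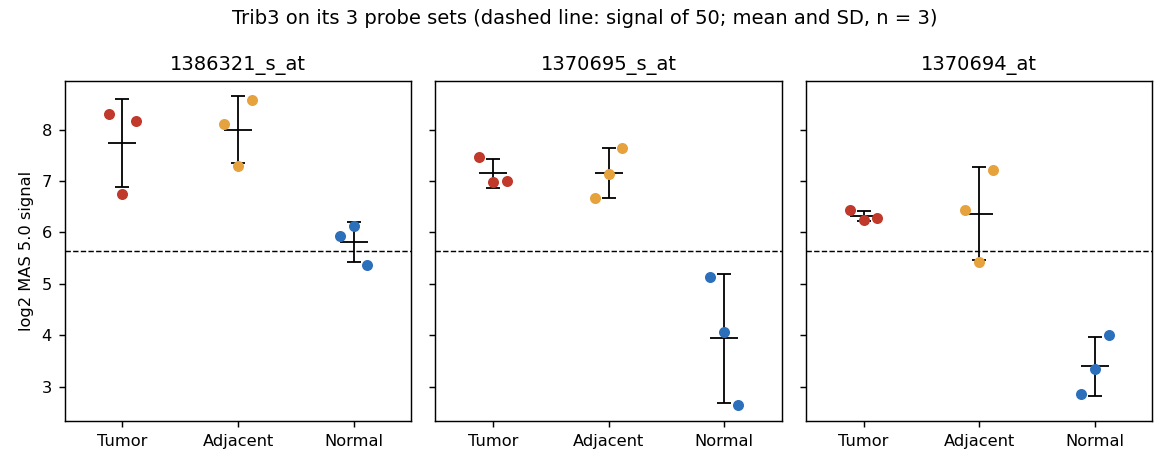
The panels plot the log2 MAS 5.0 signal of the 3 Trib3 probe sets in tumors, adjacent normal tissues and normal bladders, 1 point per array, with mean and SD (n = 3 per group). The dashed line marks a signal of 50, and the normal bladders lie under it on both probe sets at the right and on 1 array at the left.

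The transcription factors differed less. Atf3, which is induced by many stresses and by growth signals as well, had 9.22, 10.02 and 9.91 in tumors on probe set 1369268_at, against 8.99, 8.66 and 8.02 in normal bladders. The groups did not overlap, but tumor 1 was only 0.23 above normal bladder 1 (1.16 ± 0.31, 2.24-fold, adjusted p = 0.0410). That call was lost without tumor 2, without tumor 3 or without any one normal bladder, with an adjusted p of up to 0.126. Adjacent normal tissues had 8.79, 9.63 and 9.76, and adjacent tissue 1 fell within the range of normal bladders (0.84, interval 0.08 to 1.60, adjusted p = 0.121). Without adjacent tissue 1 Atf3 passed the test there.

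Ddit3 encodes CHOP, a factor that turns lasting endoplasmic reticulum stress towards cell death. On probe set 1369590_a_at the log2 signals were 10.21, 10.04 and 10.00 in tumors, 9.93, 9.98 and 9.84 in adjacent normal tissues and 9.62, 9.56 and 9.47 in normal bladders, with no overlap between any pair of groups. The difference from normal bladder was small, 0.53 ± 0.12 or 1.45-fold in tumors (adjusted p = 0.0254) and 0.37 (interval 0.07 to 0.66) in adjacent normal tissues, which did not pass (adjusted p = 0.0884). The tumor call was lost without tumor 3 or any one normal bladder, with an adjusted p of up to 0.100. The gene passed in adjacent normal tissues once arrays were centred on their medians. Tumors exceeded adjacent normal tissues by 0.17 (interval -0.20 to 0.53).

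On probe set 1367624_at, Atf4 itself had 12.89, 12.90 and 12.73 in tumors, against 12.51, 12.61 and 12.38 in normal bladders. The 2 groups did not overlap, but the difference of 0.34 (interval 0.07 to 0.61, 1.27-fold) did not pass (adjusted p = 0.0862). Adjacent normal tissues had 12.39, 12.50 and 13.04 and overlapped normal bladders, with adjacent tissue 3 above all other arrays (0.14, interval -0.28 to 0.57, adjusted p = 0.645).

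The members of the endoplasmic reticulum branch passed the test in neither tissue. Hspa5 (1370283_at), which encodes the chaperone BiP, had 13.58, 13.82 and 13.22 in tumors, 13.34, 13.74 and 13.71 in adjacent normal tissues and 13.36, 13.07 and 13.48 in normal bladders. Tumors differed from normal bladders by 0.24 (interval -0.20 to 0.67, adjusted p = 0.433) and adjacent normal tissues by 0.30 (interval -0.08 to 0.67, adjusted p = 0.257). Tumor 3 lay below normal bladders 1 and 3, so the groups overlapped.

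Xbp1 (1371249_at), whose spliced form is the transcription factor of the IRE1 branch, had 12.30, 12.73 and 12.34 in tumors, 11.93, 12.51 and 12.67 in adjacent normal tissues and 12.36, 12.31 and 12.31 in normal bladders. The normal bladders lay within 0.05 of each other, inside the spread of both other groups. The difference was 0.13 in tumors (interval -0.20 to 0.46, adjusted p = 0.565) and 0.04 in adjacent normal tissues (interval -0.40 to 0.48, adjusted p = 0.910). Plasma cells carry much Xbp1, and the 7 measured markers of plasma and B cells summed to 231% to 304% of the normal mean in tumors and 224% to 298% in adjacent normal tissues, with 1 of them dim on all 9 arrays. By gene, 1 of the 7 passed as higher in tumors and 3 in adjacent normal tissues, 0 passed as lower, and the median log2 fold change was -0.15 in tumors and 1.93 in adjacent normal tissues, so in tumors the sum and the median went opposite ways. The part of these cells in the Xbp1 values was not tested. Herpud1 (1367741_at), a membrane protein that serves the degradation of misfolded proteins, had 11.25, 11.61 and 11.01 in tumors, 11.15, 10.96 and 11.58 in adjacent normal tissues and 11.15, 10.73 and 10.70 in normal bladders. The groups overlapped, and its differences were 0.43 in tumors (interval -0.03 to 0.88, adjusted p = 0.176) and 0.37 in adjacent normal tissues (interval -0.09 to 0.82, adjusted p = 0.247). For Hspa5, Xbp1 and Herpud1 the intervals allow fold changes of up to 1.60, 1.38 and 1.84 in tumors, so these values do not show that the genes were unchanged.

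Counted over the 10 members, 6 were higher in tumors than in normal bladder and 0 were lower. Of all genes, 23.5% passed in either direction and 13.6% were higher. The members' median log2 fold change was 0.85, and that of all genes was 0.05. In 7 members every tumor lay above every normal bladder, as in 25.7% of all genes. Against normal bladder, adjacent normal tissues had 4 members higher and 0 lower, where 24.8% of all genes passed and 13.3% were higher. The median was 0.60 for the members and 0.01 for all genes, and 5 members did not overlap with normal bladder, as in 24.8% of all genes. These comparisons share the 3 normal bladders, so a value of a normal bladder enters both. The number of members higher in tumors was 6 without tumor 1, 5 without tumor 2 and 3 without tumor 3 or any one normal bladder, and Asns, Psat1 and Phgdh were called each time.

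Tumors and adjacent normal tissues were also compared directly, without pairing by rat. None of the 10 members passed there (limma, 0 called, 0% of all genes), and at an unadjusted p under 0.05 the count was 0 of 10 by limma and by the methods' t-test, against 376 and 443 of all genes. The members' median difference was 0.04, beside 0.02 for all genes. Ddit3 alone had every tumor above every adjacent normal tissue, a pattern held by 4.1% of all genes. The intervals of the 10 members ran from -1.41 to 1.08, widest for Trib3 and Psat1.

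**Figure D3:**
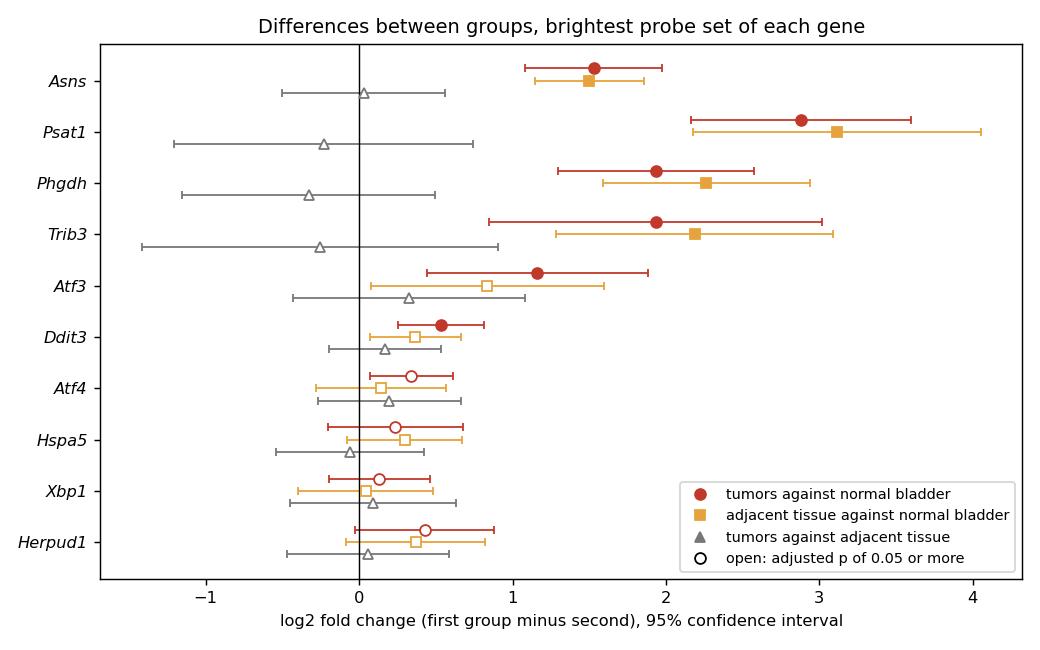
Points are log2 fold changes of each gene's brightest probe set, with 95% confidence intervals, in tumors against normal bladder, adjacent normal tissues against normal bladder and tumors against adjacent normal tissues (3 arrays per group). Filled symbols passed an adjusted p of 0.05. Psat1 lies furthest from 0, at 2.88 and 3.11, and every interval of tumors against adjacent normal tissues covers 0.

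Within groups, the arrays varied by gene. Adjacent tissue 3 was the highest of its group in 8 of 10 members, the exceptions being Ddit3 and Hspa5. Among tumors, tumor 2 was the highest in 6 members and tumor 1 the lowest in 5. Normal bladder 3 was the lowest of its group in 8. On the brightest probe sets the tumors ranged over 1.56 log2 units in Trib3, 0.99 in Phgdh and 0.94 in Psat1, and over 0.17 in Atf4 and 0.21 in Ddit3. On the other Trib3 probe sets the tumors lay closer together, from 6.97 to 7.48 on 1370695_s_at and from 6.24 to 6.43 on 1370694_at.

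The tissues also differed in cell markers. Summed signals of 12 smooth muscle markers were 71.1%, 8.61% and 6.67% of the normal mean in tumors 1, 2 and 3 and 36.4%, 13.7% and 7.50% in adjacent tissues 1, 2 and 3. The 8 measured basal and squamous markers summed to between 747% and 1122% in tumors and between 783% and 1560% in adjacent normal tissues. The 7 neutrophil markers reached 1730% to 9557% in tumors and 2895% to 23452% in adjacent normal tissues, highest in adjacent tissue 3. In linear signal they summed to 173, 240 and 229 in normal bladders, a mean per marker under the limit of a reliable value. The size of these percentages is thus not reliable, though the sums were 3695 to 20417 in tumors and 6185 to 50100 in adjacent normal tissues. The 11 markers of dividing cells reached 465% to 1064% in tumors and 399% to 935% in adjacent normal tissues. Their sums in normal bladders, 519 to 761, put the mean per marker near that limit as well. Fibroblast markers (10) summed to 6.98% to 76.1% in tumors and 20.0% to 61.4% in adjacent normal tissues. Markers of the urothelium, the lining the label BTCC refers to, were at 71.2% to 94.2% in tumors and at 55.2% to 105% in adjacent normal tissues. In the normal bladders each of these sums stayed between 80.8% and 122% of their mean, and none of these 6 lists had a marker that was dim on all 9 arrays. That does not exclude markers that were dim in the normal bladders alone. Across all probe sets, which are not independent replicates, Pearson's r was 0.897 to 0.930 between tumors and adjacent normal tissues and 0.838 to 0.899 between adjacent normal tissues and normal bladders. Between tumors and normal bladders it was 0.843 to 0.910. In the muscle, squamous, neutrophil and dividing cell markers the adjacent normal tissues lay nearer the tumors than the normal bladders, against their label.

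By the test, 7 of 8 basal and squamous markers were higher in tumors and 8 of 8 in adjacent normal tissues. Of the 12 smooth muscle markers 4 were lower in tumors and 12 in adjacent normal tissues. Of the 10 fibroblast markers 1 was lower in tumors and 7 in adjacent normal tissues. Of the 7 neutrophil markers 4 were higher in either tissue, and of the 11 markers of dividing cells 11 in tumors and 10 in adjacent normal tissues. Of 9 urothelium markers 2 were lower in tumors, and in adjacent normal tissues 1 was higher and 1 lower. Tumor 1, which kept most of the smooth muscle signal, was the lowest tumor in Asns, Psat1 and Phgdh. It still stood above every normal bladder in these genes, by 1.19 in Asns and by 1.29 in Phgdh. In Trib3 and Ddit3 tumor 1 was the highest tumor. Among adjacent normal tissues, adjacent tissue 1 had the most smooth muscle signal, but adjacent tissue 2 was the lowest in Asns, Psat1 and Phgdh. The part of cell content in the members' values was not tested.

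The other genes of the pathway were read from 6 lists of its known members, with the brightest probe set for each gene, and their medians stand beside 0.05 in tumors and 0.01 in adjacent normal tissues for all genes. Their counts are to be read beside all genes, of which 13.6% were higher and 23.5% passed in either direction in tumors, and 13.3% and 24.8% in adjacent normal tissues. All genes include dim ones, whose signals varied more, and the lists were not matched to them by signal level. Of 15 genes for the kinases, the initiation factor eIF2, its exchange factor eIF2B and the phosphatase subunits that reverse the response, 6 were higher in tumors and 0 lower (median 0.41), and 5 were higher in adjacent normal tissues and 0 lower (median 0.49). Eif2ak3, which encodes the kinase PERK, had 9.96, 10.30 and 9.72 in tumors and 10.04, 10.33 and 9.98 in adjacent normal tissues, against 9.06, 9.16 and 9.23 in normal bladders. No array of either tissue overlapped the normal bladders (0.85, adjusted p = 0.0179 in tumors, and 0.97, adjusted p = 0.00488 in adjacent normal tissues). Eif2b2, a subunit of eIF2B, was higher in tumors by 0.67 (adjusted p = 0.0205), and its difference of 0.49 in adjacent normal tissues did not pass (adjusted p = 0.0992). Ppp1r15b, a phosphatase subunit that is always present in cells, was higher by 0.62 in tumors (adjusted p = 0.0249) and by 0.60 in adjacent normal tissues (adjusted p = 0.0135), though its other, dim probe set did not pass. The count in tumors was 9 without tumor 1, 2 without tumor 2, 1 without tumor 3 and 0 without any one normal bladder. For adjacent normal tissues it was 4 to 6 without any one of them, 1 without normal bladder 1 or 2 and 2 without normal bladder 3.

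Of 17 measured further targets of ATF4 and CHOP, 7 were higher in tumors and 0 lower (median 0.75), and 4 were higher in adjacent normal tissues and 1 lower (median 0.40). Gdf15, a circulating stress hormone, had 8.11, 9.85 and 9.22 in tumors and 8.44, 8.66 and 8.89 in adjacent normal tissues, against 4.82, 4.36 and 5.22 in normal bladders, all 3 dim. It was at least 10.7-fold higher in tumors (adjusted p = 0.00353) and at least 8.11-fold higher in adjacent normal tissues (adjusted p = 0.00062). Every array of both tissues lay above every normal bladder. Vegfa, the growth factor of blood vessels, had 11.45, 12.46 and 12.30 in tumors and 11.70, 11.43 and 12.50 in adjacent normal tissues, against 10.78, 10.56 and 10.31 in normal bladders (1.52, adjusted p = 0.0128 in tumors, and 1.33, adjusted p = 0.0136 in adjacent normal tissues). Its other probe set passed in tumors as well.

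Sqstm1 encodes the autophagy receptor p62. It had 12.86, 12.83 and 12.38 in tumors, 11.86, 12.37 and 11.98 in adjacent normal tissues and 11.64, 11.79 and 11.57 in normal bladders. It was higher in tumors than in normal bladders by 1.02 (adjusted p = 0.00807), and a further probe set passed there, while its dimmer ones did not. The difference of 0.40 in adjacent normal tissues did not pass (adjusted p = 0.119). Every tumor lay above every adjacent normal tissue, by 0.62 on average, with an adjusted p of 1. The gene lower in adjacent normal tissues was Jdp2, a repressor of the AP-1 family named because it was the only one (adjusted p = 0.0476), with adjacent tissues 1 and 2 dim. The list's count of calls in tumors was 12 without tumor 1, 4 without tumor 2 or normal bladder 1 and 2 without tumor 3, normal bladder 2 or normal bladder 3. It was 3 in adjacent normal tissues without normal bladder 2 or 3 and 4 to 7 without any other array.

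Of 23 measured enzymes of serine, glycine, proline, related amino acid and one-carbon metabolism, 6 were higher and 3 lower in tumors (median 0.30), and 5 were higher and 3 lower in adjacent normal tissues (median 0.30). The higher ones were 26.1% of the list in tumors and 21.7% in adjacent normal tissues, beside 13.6% and 13.3% of all genes. Psph, the phosphatase that completes the serine pathway begun by Phgdh and Psat1, had 9.13, 9.47 and 9.25 in tumors and 9.67, 9.12 and 9.55 in adjacent normal tissues, against 8.19, 8.23 and 8.30 in normal bladders (1.04, adjusted p = 0.00677 in tumors, and 1.21, adjusted p = 0.00467 in adjacent normal tissues). The pathway's genes from Phgdh to Psph were thus each higher in both tissues. Mthfd2, the mitochondrial enzyme that carries one-carbon units onward, had 7.99, 7.71 and 8.21 in tumors and 8.58, 8.31 and 9.40 in adjacent normal tissues, against 6.33, 6.72 and 6.17 in normal bladders (1.56, adjusted p = 0.00935, and 2.36, adjusted p = 0.00307). Here every tumor lay below every adjacent normal tissue (-0.80, interval -1.54 to -0.05, adjusted p = 1). Mthfd1l, its partner in mitochondria, was higher by 1.30 in tumors (adjusted p = 0.0447) and by 1.43 in adjacent normal tissues (adjusted p = 0.0352).

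The lower enzymes were Gls2, Aldh1l1 and Oat. Gls2, the liver-type glutaminase, had 8.10, 8.11 and 8.70 in tumors and 8.28, 8.14 and 7.80 in adjacent normal tissues, against 10.29, 10.39 and 10.77 in normal bladders. Its log2 fold change was -2.18 in tumors (adjusted p = 0.0028) and -2.41 in adjacent normal tissues (adjusted p = 0.000611), without overlap. Aldh1l1, which oxidizes formyl-tetrahydrofolate, was lower in tumors (adjusted p = 0.0415), of which tumors 2 and 3 were dim, and was at least 2.13-fold lower in adjacent normal tissues, which were all dim (adjusted p = 0.0273). Its call in tumors was lost in 11 of 14 alternatives, with an adjusted p of up to 0.144, among them leaving out tumor 2, tumor 3 or any one normal bladder. The call in adjacent normal tissues was lost in 5 of 14, any one normal bladder left out included. Oat, ornithine aminotransferase, was named because it completes the count of 3 and changed by -0.66 in tumors (adjusted p = 0.0135) and by -0.70 in adjacent normal tissues (adjusted p = 0.0163). The list's calls in tumors numbered 13 without tumor 1, 5 without tumor 2, 4 without tumor 3 or normal bladder 1 and 3 without normal bladder 2 or 3. Those in adjacent normal tissues numbered 7 to 10 without any one of them, 4 without normal bladder 1 or 2 and 5 without normal bladder 3.

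Among 18 amino acid transporters, 4 were higher and 2 lower in tumors (median 0.43), and 6 were higher and 2 lower in adjacent normal tissues (median 0.32). That is 22.2% higher in tumors and 33.3% in adjacent normal tissues, where all genes had 13.6% and 13.3%. Slc7a11, the cystine-glutamate exchanger that ATF4 and NRF2 both induce, had 12.66, 12.38 and 12.36 in tumors, 13.12, 11.37 and 12.65 in adjacent normal tissues and 7.83, 7.96 and 7.78 in normal bladders. It was 24.4-fold higher in tumors (4.61 ± 0.13, adjusted p = 3.93e-05) and higher by 4.52 in adjacent normal tissues (adjusted p = 0.000731), the largest measured rises of the 6 lists. Slc3a2, the heavy chain that pairs with it, was the fourth transporter to pass and was named for that. It was higher by 1.02 in tumors (adjusted p = 0.0104) and 2.01-fold in adjacent normal tissues (adjusted p = 0.00801).

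Slc7a1, a carrier of arginine and lysine, had 10.94, 12.58 and 11.74 in tumors, 11.35, 11.75 and 12.36 in adjacent normal tissues and 10.37, 10.49 and 9.88 in normal bladders (1.50, adjusted p = 0.0394, and 1.57, adjusted p = 0.00704). Its other probe sets did not pass in tumors. Slc6a14, a broad amino acid carrier of epithelia, had 5.40, 7.62 and 9.07 in tumors, 6.27, 7.65 and 11.74 in adjacent normal tissues and 4.46, 4.04 and 3.87 in normal bladders, all dim. It was at least 3.29-fold higher in tumors (adjusted p = 0.0416) and at least 7.52-fold higher in adjacent normal tissues (adjusted p = 0.0394), and tumor 1 was dim as well. Its call in tumors was lost in 10 of 15 alternatives, with an adjusted p of up to 0.157. The call in adjacent normal tissues was lost in 7 of 15, with an adjusted p of up to 0.185. Adding 50 to the signal was among them in both tissues. Slc43a1, a carrier of large neutral amino acids, had 8.79, 5.89 and 5.82 in tumors and 8.30, 6.69 and 5.95 in adjacent normal tissues, against 9.57, 9.21 and 9.72 in normal bladders (-2.67, adjusted p = 0.0498, and -2.52, adjusted p = 0.0155). It was highest in tumor 1 and in adjacent tissue 1, the arrays with most smooth muscle and most fibroblast signal in their groups. The part of cell content in the values of Slc43a1 was not tested. Slc38a1, a glutamine carrier, changed by -0.81 in tumors (adjusted p = 0.0133) and by -1.07 in adjacent normal tissues (adjusted p = 0.021), though its other probe sets did not pass. The list's calls in tumors numbered 10 without tumor 1, 3 without tumor 2, 4 without tumor 3, 2 without normal bladder 1 and 1 without normal bladder 2 or 3. Those in adjacent normal tissues numbered 6 or 7 without any one of them and 3 without any one normal bladder.

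The cytosolic aminoacyl-tRNA synthetases, which charge transfer RNAs with their amino acids and many of which ATF4 induces, were higher in 63.2% of the list in tumors and 68.4% in adjacent normal tissues, beside 13.6% and 13.3% of all genes. Of 19 measured, 12 were higher in tumors, 0 lower and 7 did not pass (median 0.53), and 13 were higher in adjacent normal tissues, 0 lower and 6 did not pass (median 0.69). All tumors lay above all normal bladders in 17 of them, and all adjacent normal tissues in 16, beside 25.7% and 24.8% of all genes. Nars1, the asparagine enzyme, had 11.75, 12.08 and 12.02 in tumors and 11.70, 11.76 and 12.51 in adjacent normal tissues, against 10.71, 10.60 and 10.67 in normal bladders (1.29, adjusted p = 0.00272, and 1.33, adjusted p = 0.00548). Tars1, for threonine, had 11.31, 11.12 and 11.07 in tumors and 11.09, 10.89 and 11.96 in adjacent normal tissues, against 9.94, 9.89 and 9.93 in normal bladders (1.25, adjusted p = 0.00232, and 1.39, adjusted p = 0.00951). Aars1, for alanine, was higher by 0.85 in tumors (adjusted p = 0.0145) and by 0.84 in adjacent normal tissues (adjusted p = 0.00848). The count in tumors was 14 without tumor 1, 10 without tumor 2, 7 without tumor 3 and 2, 3 and 4 without normal bladders 1, 2 and 3. The count in adjacent normal tissues was 12 to 14 without any one of them and 5, 5 and 6 without normal bladders 1, 2 and 3.

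Of 36 measured chaperones and other genes of the endoplasmic reticulum and its unfolded protein response, 9 were higher and 2 lower in tumors (median 0.28), and 6 were higher and 3 lower in adjacent normal tissues (median 0.25). The share that was higher, 25.0% in tumors and 16.7% in adjacent normal tissues, stands beside 13.6% and 13.3% of all genes. The 9 calls of 36 in adjacent normal tissues were thus near the 24.8% of all genes that passed in either direction. The higher ones included Dnajb11, a partner of BiP, with 10.61, 10.71 and 10.33 in tumors and 10.63, 10.60 and 10.54 in adjacent normal tissues, against 9.67, 9.61 and 9.89 in normal bladders (0.83, adjusted p = 0.0124, and 0.87, adjusted p = 0.00447). Sdf2l1, which acts with Dnajb11, was higher by 0.87 in tumors (adjusted p = 0.0153) and by 0.93 in adjacent normal tissues (adjusted p = 0.0194). Creld2, a secretory pathway protein induced by the unfolded protein response, was higher by 0.84 in tumors (adjusted p = 0.0251) and by 0.74 in adjacent normal tissues (adjusted p = 0.0177). Partners of BiP thus passed where Hspa5 did not, and the difference between them was not tested.

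The lower genes of that list were transcription factors of the CREB3 family and Crebrf. Creb3l1, a membrane-bound factor that drives collagen secretion, had 7.52, 6.43 and 6.61 in tumors and 8.12, 7.13 and 7.17 in adjacent normal tissues, against 9.25, 8.44 and 8.84 in normal bladders (-1.99, adjusted p = 0.0115, and -1.37, adjusted p = 0.0246). Tumor 1 and adjacent tissue 1 were the highest of their groups, as they were in the summed fibroblast and smooth muscle signals. The part of cell content in the values of Creb3l1 was not tested. Crebrf, which was found as a regulator of CREB3, changed by -1.26 in tumors (adjusted p = 0.00597) and by -1.02 in adjacent normal tissues (adjusted p = 0.0357), though its other probe sets did not pass. Creb3l2, named because it completes the count of 3 in adjacent normal tissues, changed there by -1.09 (adjusted p = 0.0467). The list's calls in tumors numbered 16 without tumor 1, 8 without tumor 2, 7 without tumor 3 and 2, 3 and 5 without normal bladders 1, 2 and 3. Calls in adjacent normal tissues numbered 6 to 12 without any one of them and 2, 3 and 4 without normal bladders 1, 2 and 3.

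**Figure D4:**
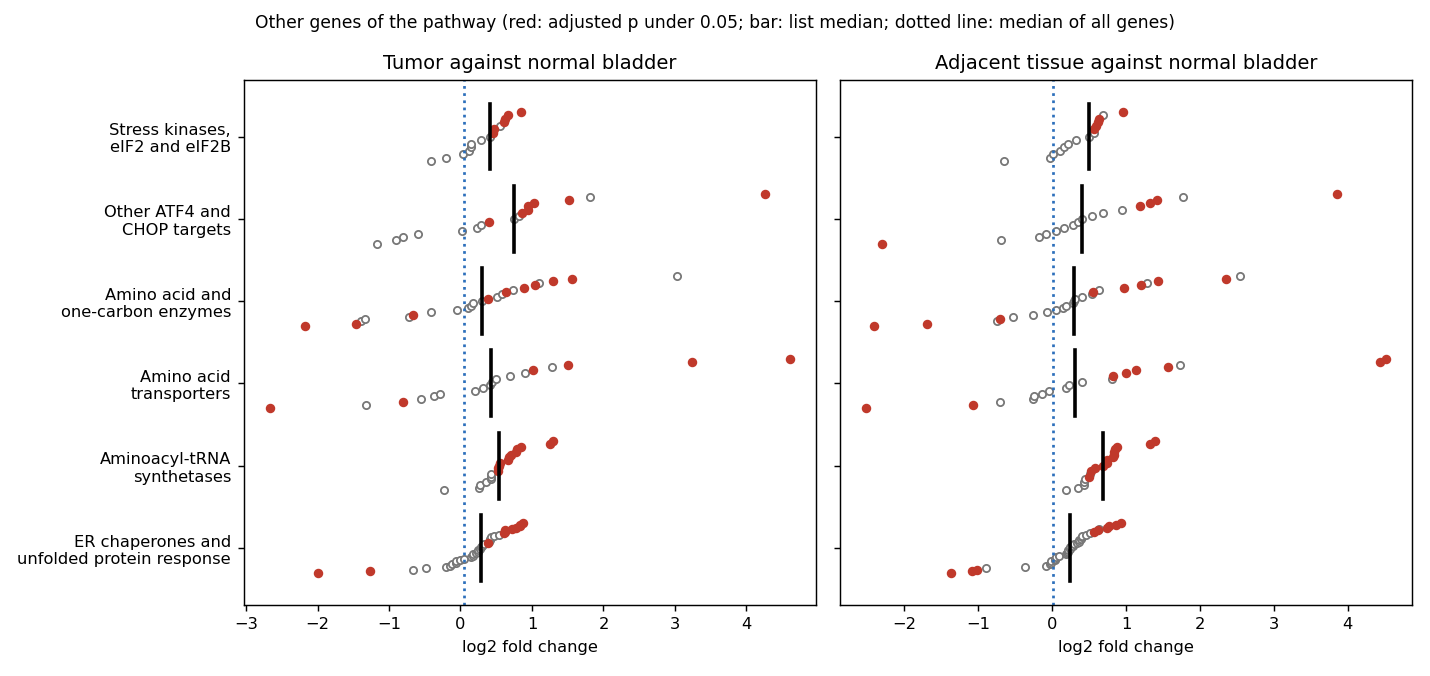
Each point is 1 gene of a pathway list, placed by its log2 fold change in tumors against normal bladder (left) or adjacent normal tissues against normal bladder (right), dim signals included as measured. Red points passed an adjusted p of 0.05, black bars are list medians and the dotted line is the median of all genes, 0.05 in tumors and 0.01 in adjacent normal tissues. The synthetases lie almost wholly to the right of 0, with medians of 0.53 and 0.69.

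Against adjacent normal tissues, 0 genes of the 6 lists passed in tumors, as did 0 of all genes. The list medians there lay between -0.07 and 0.12. Of the 24 pathway genes named for the size of their change in tumors, 9 kept their call without each array in turn, and these were Gdf15, Sqstm1, Psph, Mthfd2, Gls2, Slc7a11, Nars1, Tars1 and Crebrf. In adjacent normal tissues 11 of 22 called genes did so.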

How the data were processed

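RNA of 9 rat bladder tissues was read on Affymetrix arrays after TRIzol extraction and labelling with a 3' IVT Express kit. Per the labels, the authors scanned with Command Console Software 3.1 and normalized with MAS 5.0 in Gene Spring Software 11.0. They deposited log2 signals of 31099 probe sets, and the trimmed mean linear signal (2% at either end) is the same on each array. MAS 5.0 subtracts mismatch signal, so low values vary most. No build bears on these values.

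After 57 array controls were left out, 31042 probe sets were tested. The annotation gives 1 gene to 20826 of them, several to 436 and none to 9780. The brightest probe set stood for each of 14217 genes, of which 4525 have more than 1. In R 4.3.3, limma 3.58.1 (lmFit, eBayes with a mean-variance trend) fitted each pair of groups alone, two-sided, with Benjamini-Hochberg adjustment over all tested probe sets and a threshold of 0.05. With 3 arrays per group, their number limits the precision. The script was tested on simulated data.

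Members and lists were chosen with earlier results of these data known. Named are all members and, from each list, up to 3 largest rises and 2 largest falls among genes past the threshold in tumors against normal bladder. The dim limit of 50 was set after the spread was seen. The alternatives were quantile normalization, centring, a filter at the 40th percentile of signal, 50 added to the signal, no trend, a fit of the 9 arrays together, a block for the replicate number, each array left out, the methods' t-test and averaged probe sets. Promoters came from RefSeq (GRCr8). Probe-level intensities were not used here.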

Additional observations from a re-analysis of the deposited data

How the results depend on the processing

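The 10 members were recomputed under 15 alternatives in each of the 3 comparisons. Of these 450 values 405 kept their direction and their side of the threshold, 24 no longer passed, 3 newly passed and 18 changed sign. The number of members called in tumors against normal bladder, 6, became 3 without the mean-variance trend, 3 with the replicate block and 3 by the methods' t-test after adjustment, and ran from 3 to 6 without 1 array. Phgdh was lost by that t-test alone (adjusted p = 0.0504). In adjacent normal tissues against normal bladder the count of 4 became 5 without adjacent tissue 1 and 5 with centred arrays and was 4 with the replicate block. By the adjusted t-test it was 3, with Trib3 (0.0658) and Psat1 (0.0519) lost and Ddit3 gained. In tumors against adjacent normal tissues it was 0 throughout, the replicate block included.

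The labels do not say that a replicate number marks a rat. Deviations from the group means of same-numbered tumors and adjacent normal tissues correlated at 0.24, 0.0443 and 0.137. Tumors 1 and 3 correlated best with the adjacent tissue of their own number, and tumor 2 with adjacent tissue 3 (0.106). As no label gives the numbers that meaning, they were not taken as pairs. A block for the replicate number called 2242 genes in tumors and 2864 in adjacent normal tissues, both against normal bladders. Those bladders came from other rats, so these counts do not test the pairing of tumors with adjacent normal tissues.

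All genes called in tumors against normal bladder numbered 3341, against 1318 without the trend, 1077 by the adjusted t-test and 902 to 5390 without 1 array. In adjacent normal tissues the 3531 became 1894, 1480 and 1664 to 4201. For the pathway lists, taken as kinases, targets, enzymes, transporters, synthetases and endoplasmic reticulum genes, calls in tumors without the trend were 0, 2, 3, 2, 3 and 3 and by the adjusted t-test 2, 1, 5, 1, 4 and 4. In adjacent normal tissues they were 1, 3, 5, 3, 4 and 3 without the trend and 3, 3, 3, 1, 3 and 3 by the adjusted t-test. The replicate block gave 3, 4, 4, 5, 9 and 7 in tumors, and averaging probe sets of a gene 4, 4, 8, 3, 6 and 10. That average gave, in adjacent normal tissues, 3, 5, 8, 7, 8 and 9, and centring raised the count for kinases to 8 and for endoplasmic reticulum genes to 15. Centring each array on its median moved the median of all genes by 0.20 in both comparisons with normal bladder. The share of called genes that were higher then became 69.7% (2504 higher, 1090 lower) in tumors, against 57.7% (1927 higher, 1414 lower) as deposited, and 69.7% (3012 higher, 1308 lower) in adjacent normal tissues, against 53.7% (1895 higher, 1636 lower).

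Changes of sign were in differences that did not pass in the main test, though Sqstm1 in adjacent normal tissues passed in 2 alternatives. Without 1 array, Xbp1 ran from -0.004774 to 0.2118 in tumors and from -0.1072 to 0.2618 in adjacent normal tissues, where quantile normalization gave -0.0168, and Atf4 there from -0.05418 to 0.2722. Tumors against adjacent normal tissues ran from -0.5862 to 0.2105 in Psat1, -0.6048 to 0.2429 in Trib3, -0.1297 to 0.2393 in Xbp1, -0.09887 to 0.2326 in Herpud1, -0.201 to 0.09885 in Hspa5 and -0.1746 to 0.1769 in Asns. Sqstm1 in adjacent normal tissues was -0.03963 as the mean of its probe sets. Why calls and signs moved was not tested. Fits without 1 array also have fewer degrees of freedom, and in them calls of all genes rose without some arrays and fell without others. Dim signals, under 50, limit the values of Gdf15, Slc6a14, Aldh1l1, Jdp2, the dimmer Trib3 probe sets and the percentages of the neutrophil markers.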
